A study of Macaca fascicularis with 20 samples.

Results

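The outer subventricular zone (OSVZ) of area 17, the primary visual cortex, was sampled as an inner sublayer (OSVZ_17int) and an outer sublayer (OSVZ_17ext) in fetal Macaca fascicularis. The inner sample was cut by laser at the apical end of the zone, the side facing the ventricle. The outer sample was cut at its basal end, just under the outer fiber layer, and the tissue between the samples belongs to neither. The comparison used 4 libraries, an inner and an outer library in each of 2 sets, out of 14 libraries that could be tied to a label and 20 labelled samples in all. Set 1 was taken at embryonic day 80 and set 2 at embryonic day 79. The libraries compared are those whose labels name these sublayers in the count tables of sets 1 and 2. All 14 libraries, from 7 microdissected regions, were used to estimate the spread, and VZ_17 (ventricular zone of area 17) and CP_17 (cortical plate of area 17), with 2 libraries each, served as reference points on either side of the OSVZ. The ventricular zones and cortical plates of area 18 (VZ_18, CP_18) were compared to choose germinal and neuronal microRNAs, in the fit of all 14 libraries, so that the area 17 libraries entered the spread behind that choice. No agent, allele or transgene is named in the labels. Whether a set is 1 fetus or several is not stated in them, so p-values measure the spread between these samples.

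The OSVZ is a layer of dividing cells that primates have enlarged. It lies between the ventricular zone, where apical radial glia divide, and the cortical plate, where young neurons settle, and it holds basal radial glia and intermediate progenitors along with neurons that migrate through it. MicroRNAs are short RNAs that guide Argonaute proteins to messenger RNAs and lower their output. Each hairpin can give 2 mature arms, called 5p and 3p after the strand they come from, and each arm was treated as a separate feature here. In bulk tissue of this kind, fewer cells of a type and less RNA per cell cannot be told apart.

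Total counts were 8719563 in the inner and 9517217 in the outer library of set 1, and 4469156 and 4583582 in set 2, within a range of 3603478 to 9517217 over the 14 libraries. Levels are CPM (each count divided by the library size and set to a common total) after TMM scaling, which equalises libraries over the bulk of their arms, so that an abundant arm can exceed its plain share. Of 1656 arms present in both tables, 1139 passed the filter on low counts and were tested, and 379 of these averaged 10 CPM or more over the 14 libraries. The sets differed in their makeup. In set 1, miR-130b-3p took 23.6% of all counts in the inner and 25.5% in the outer library, against 0.386% and 0.429% in set 2. The arm miR-34a-5p, of a p53-induced microRNA and named here after its values were seen, took 1.32% and 6.45% in set 1 against 0.0166% and 0.0136% in set 2. The germinal marker miR-92b-3p, an arm known from neural progenitors, followed the labels. It stood at 52143 and 46431 CPM in VZ_17 and at 1082 and 961 CPM in CP_17. The neuronal arm miR-124-3p was near 0 throughout, at most 2.99 CPM in any of the 14 libraries and without a count in 7 of them, so it could not serve as a marker.

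No arm passed the test between the inner and the outer sublayer: 0 of 1139 arms (0%) were called at an adjusted p under 0.05 by edgeR's quasi-likelihood test with the set as a block. At an unadjusted p under 0.05 there were 48 arms (4.21%), where 56.95 would be expected if no arm differed. The smallest adjusted p was 0.931. DESeq2, a second count model, called 2 arms, miR-299-5p and miR-323b-3p, both with higher counts in the outer sublayer (adjusted p = 0.0137 for each), and had 94 arms at an unadjusted p under 0.05. Leaving out the libraries VZ_18 replicate 1 and VZ_17 replicate 2, neither of them a sublayer library, brought edgeR's count to 5, which were miR-299-5p, miR-323b-3p, let-7b-5p, miR-204-5p and miR-181c-5p, all higher in the outer sublayer. A comparison of 2 libraries with 2 by exact permutation cannot give a two-sided p below 0.333.

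The arms that stood farthest apart on the outer side were led by members of an imprinted cluster. For miR-299-5p, from the imprinted DLK1-DIO3 locus, the outer libraries held 49.4 and 49.9 CPM (sets 1 and 2), against 8.50 and 2.07 CPM in the inner ones. Inner and outer libraries did not overlap, and the difference of inner minus outer was -3.20 ± 0.90 (log2, SE; 2 libraries a side; unadjusted p = 0.0011, edgeR). Its level in CP_17 was higher still, at 74.3 and 120 CPM, and VZ_17 lay in between at 35.9 and 25.0 CPM. For miR-323b-3p, of the same locus, the outer libraries held 5.54 and 5.98 CPM and the inner libraries no count at all. In counts that is 73 in the outer libraries and 0 in the inner ones, so the outer sublayer was at least 22.4-fold higher when the inner one is set at a floor of 3 counts over both its libraries. CP_17 held 23 and 22 CPM of miR-323b-3p and VZ_17 held 1.51 and 0. Across alternatives the adjusted p of miR-299-5p and of miR-323b-3p ran from 0.0137 to 1.

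Abundant arms with higher outer values came from let-7, miR-181 and miR-204. For let-7b-5p, of the family that rises as progenitors give way to differentiated cells, the outer libraries held 3236 and 3829.6 CPM and the inner ones 726 and 1547 CPM. Every outer value was above every inner value, and the difference was -1.66 ± 0.53 (log2, SE; unadjusted p = 0.0035, edgeR). VZ_17 held 2981 and 5210.0 CPM, close to or above the outer sublayer, and CP_17 held 1563 and 1803 CPM, near the higher inner value. For miR-204-5p, which lies in an intron of TRPM3 and is known from choroid plexus and pigment epithelium, the outer libraries held 589 and 692 CPM and the inner ones 146 and 275 CPM. These did not overlap either, and the inner libraries sat beside VZ_17 (180 and 287 CPM), while CP_17 was far above both at 7238 and 7022 CPM. The difference between sublayers was -1.69 ± 0.58 (log2, SE; unadjusted p = 0.0064, edgeR).

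Within the miR-181 family, whose members act in immune and neural differentiation, arms differed in how they behaved. For miR-181c-5p the outer libraries held 1246 and 1180.5 CPM and the inner ones 365 and 413 CPM, a difference of -1.63 ± 0.60 (log2, SE). For miR-181a-5p the outer libraries held 2184 and 11864 CPM and the inner ones 977 and 2974 CPM, so the outer library was higher within each set, but the inner library of set 2 exceeded the outer one of set 1. The difference was -1.76 ± 0.60 (log2, SE), and it ran from -0.45 without OSVZ_17ext replicate 2 to -2.65 without OSVZ_17int replicate 2. The related arm miR-181b-5p, named after its values were seen, showed no such gap, with 771 and 740 CPM in the inner and outer libraries of set 1, 1587 and 2084 CPM in set 2 and a difference of -0.23 ± 0.53 (log2, SE). The other arms of the family were also named after their values were seen. For miR-181d-5p the sublayers did not overlap in CPM, with the outer one higher (10.9% of all 1139 arms). For miR-181b-3p they did not overlap either, with the inner one higher (20.1%). They overlapped for miR-181a-3p, miR-181c-3p and miR-181d-3p. Arms of miR-181, and those of let-7, are alike in sequence, and how reads that match several of them were assigned is not given in the sources used here.

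The remaining arms on the outer side were miR-335-3p and miR-1273-3p. For miR-335-3p, whose host is the imprinted gene MEST, the outer libraries held 270 and 213 CPM and the inner ones 83.8 and 47.2 CPM (-1.89 ± 0.65, log2, SE). Here the outer sublayer was also above both VZ_17 (50.3 and 36.5 CPM) and CP_17 (82.6 and 49.7 CPM). Within each set the inner library was above VZ_17 too, by less, and lay close to CP_17. The other arm of this microRNA, miR-335-5p, named after its values were seen, averaged 561.5 CPM against 109 CPM for miR-335-3p. Inner and outer libraries overlapped in CPM for miR-335-5p. For miR-1273-3p the outer libraries held 43.2 and 60.3 CPM and the inner ones 8.09 and 19.5 CPM (-2.07 ± 0.86, log2, SE). Of the 8 outer-side arms, 7 had inner and outer libraries that did not overlap in CPM, against 10.9% of all 1139 arms that did so with the outer sublayer higher and 20.1% with the inner one higher. These 8 were picked for their small p, so this count describes the choice.

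On the inner side, the most abundant of the 8 arms with the smallest p was miR-145-5p, known from smooth muscle and pericytes. The inner libraries held 4610.4 and 2099.7 CPM and the outer ones 1017 and 1152 CPM, a difference of 1.59 ± 0.56 (log2, SE; unadjusted p = 0.0072, edgeR). The inner values lay above those of VZ_17 (1283 and 1690.5 CPM) and CP_17 (843 and 487 CPM), and the outer ones did not exceed VZ_17. Its partner from the same precursor transcript, miR-143-3p, went the other way, with 64.1 and 52.9 CPM in the inner and 175 and 79.3 CPM in the outer libraries (-1.07 ± 0.70, log2, SE).

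The arm with the smallest p on the inner side was miR-4271-5p, at 26.3 and 15.8 CPM in the inner and 2.46 and 2.91 CPM in the outer libraries. It lay above CP_17 (8.98 and 10.7 CPM) in the inner sublayer and below it in the outer one, with VZ_17 lowest at 0.860 and 1.08 CPM. The difference between the sublayers was 3.02 ± 0.98 (log2, SE; unadjusted p = 0.0040, edgeR), and it was not called in any of 12 alternatives (adjusted p from 0.144 to 1). For miR-29c-5p the inner libraries held 52.8 and 59.3 CPM and the outer ones 23.2 and 13.6 CPM (1.58 ± 0.89, log2, SE). For miR-409-5p, from the same imprinted locus as miR-299, they held 11.7 and 9.46 CPM in the inner and 1.38 and 0.808 CPM in the outer sublayer (3.23 ± 1.64, log2, SE). So arms of that locus stood at both ends of the ranking.

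The other 4 inner-side arms rested on low or set-dependent values. For miR-764-5p, from an intron of the serotonin receptor gene HTR2C, the inner and outer libraries held 2.83 and 0.308 CPM in set 1 and 119 and 11 CPM in set 2. The inner library was higher within each set, but the outer value of set 2 exceeded the inner value of set 1. The same held for miR-601-5p, with 3.04 and 0.308 CPM in set 1 and 48.8 and 5.49 CPM in set 2. For miR-4295-5p the gap was wide in set 1, at 75.3 and 5.38 CPM, and narrow in set 2, at 3.84 and 2.75 CPM. For miR-183-3p, of the miR-183/96/182 sensory cluster, the inner libraries held 7.08 and 1.77 CPM and the outer ones 0.154 and 0.162 CPM, or 47 counts against 2, a ratio of 25.5 (95% exact interval from 6.67 to 217, counting error only).

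**Figure D1:**
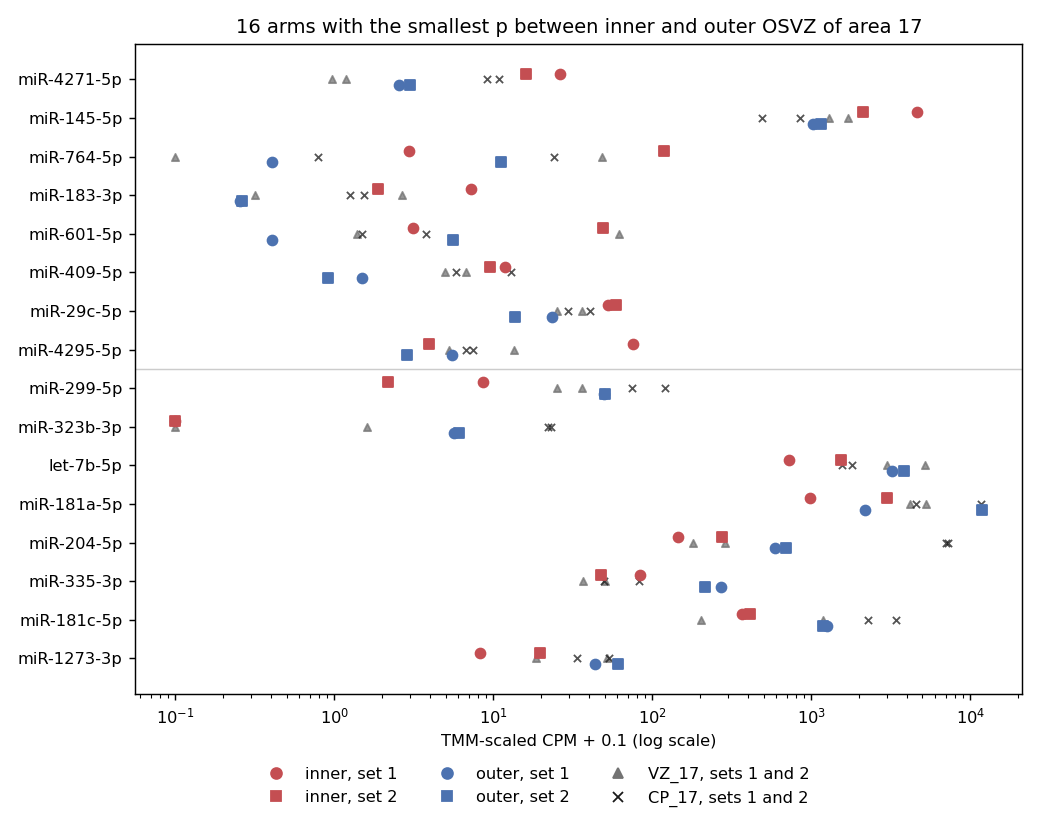
Level of the 16 arms with the smallest p between the sublayers, 8 on each side, in TMM-scaled CPM plus 0.1 on a log axis. Circles are set 1 and squares set 2, red the inner and blue the outer sublayer, triangles VZ_17 and crosses CP_17. In each row the inner point of a set lies on the same side of the outer point in both sets, by construction of the choice; for miR-204-5p the crosses at 7238 and 7022 CPM stand far to the right of both sublayers.

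How far the sets gave the same difference was read from all arms that averaged 10 CPM or more. Over these 379 arms, the difference of inner minus outer had the same direction in both sets for 183 arms (48.3%) and opposite directions for 194, and 2 were tied. Pearson's r between the sets was 0.0040 and Spearman's rho 0.036, given as a description across arms, which are not independent replicates. Over the 65 arms of at least 1000 CPM, 27 shared a direction and 38 did not (r = 0.24). Of the arms that differed by more than 2-fold in both sets, 16 were higher in the inner sublayer, 18 were higher in the outer one and 30 changed direction between sets.

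The abundant neural arm miR-9-5p, whose microRNA promotes the step from progenitor to neuron, showed how far the sets could part. It stood at 63791 CPM in the inner and 19918 CPM in the outer library of set 1, and at 8551 and 21107 CPM in set 2. The inner library was thus higher in set 1 and lower in set 2, with log2 differences of 1.68 and -1.30, while the outer libraries of the sets lay close together. Its opposite arm miR-9-3p, named after its values were seen, held 9344 and 17708 CPM in the inner and outer libraries of set 1 and 3274 and 8677 CPM in set 2, with the outer library higher in both (-1.14 ± 0.55, log2, SE; unadjusted p = 0.045, edgeR). Among less abundant arms, miR-18b-5p, of a paralog of the miR-17 cluster, held 0.809 and 10.3 CPM in set 1 and 373 and 167 CPM in set 2 (inner, then outer). So the sublayer difference changed direction while both libraries of set 2 were far above those of set 1. For miR-106a-5p, of the same cluster, the values were 78.9 and 38.6 CPM in set 1 and 35.5 and 274 CPM in set 2.

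**Figure D2:**
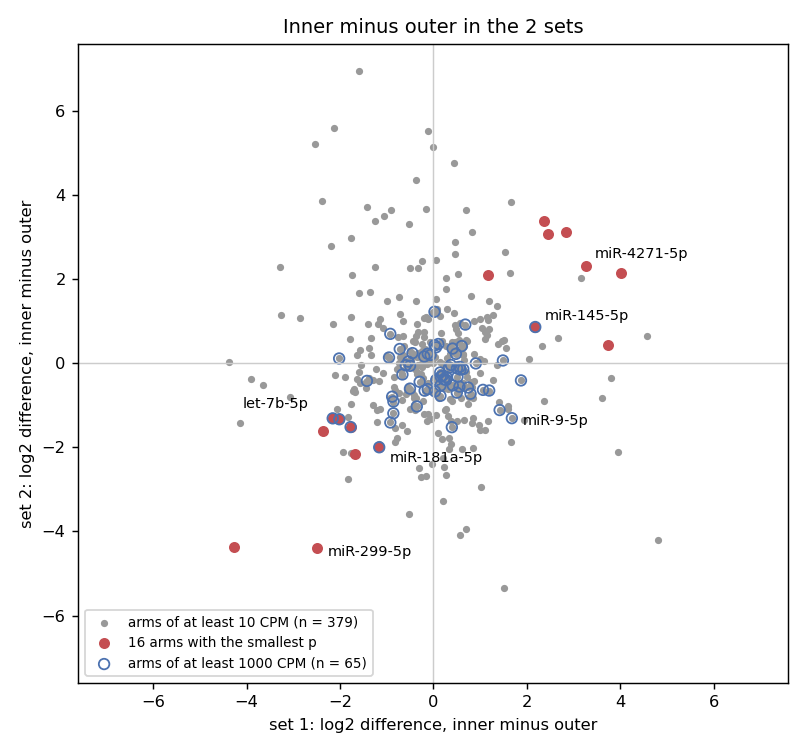
Log2 difference of inner minus outer in set 1 (horizontal) against set 2 (vertical) for the 379 arms averaging 10 CPM or more. Red points are the 16 arms with the smallest p, which share a direction in both sets by the way they were chosen, and blue rings mark the 65 arms of at least 1000 CPM. The cloud has no slope (r = 0.0040), and miR-9-5p lies in the lower right part, higher in the inner sublayer of set 1 and lower in that of set 2.

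Differences between sublayers were set beside differences between sets. The median absolute log2 difference between inner and outer over the 379 arms was 0.643 in set 1 and 0.701 in set 2. Between the sets it was 1.14 in the inner and 0.732 in the outer sublayer. The order of these medians depended on the level of the arms: over all 1139 arms the sublayer median of set 2 was 1.22, above the 1.06 between the outer libraries of the sets, and over the 65 arms of at least 1000 CPM that of set 1 was 0.516 against 0.513. In 47 of the 379 arms the sublayer differences of both sets shared a direction and each exceeded both set differences. The reverse case was not counted. Across the same arms, log2 CPM correlated at r = 0.939 between inner and outer libraries of set 1 and at 0.900 in set 2, against 0.776 between the inner libraries of the sets and 0.857 between the outer ones.

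**Figure D3:**
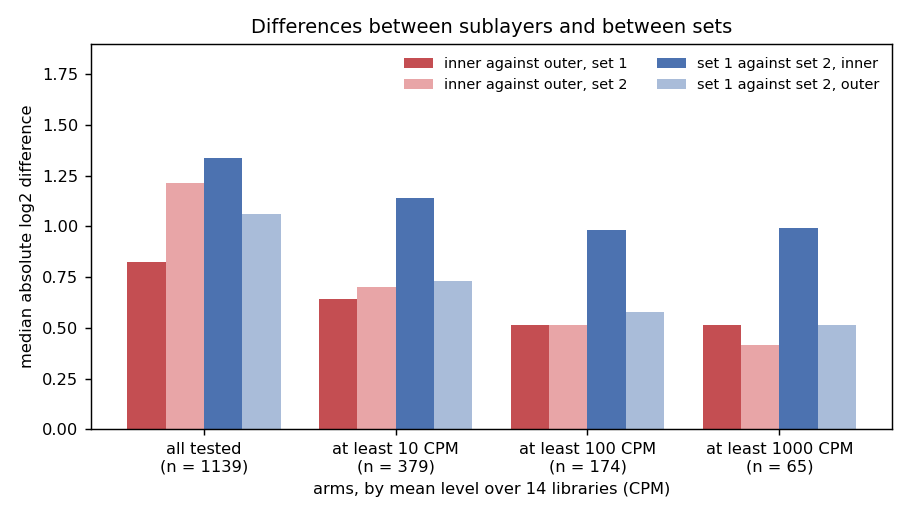
Median absolute log2 difference, by level of the arms, between inner and outer sublayer in set 1 and set 2 (red shades) and between the sets within the inner and the outer sublayer (blue shades). At 10 CPM and above the sublayer bars stand at 0.643 and 0.701, below the bar of 1.14 for the inner sublayer between sets.

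None of the 5 most abundant arms was called between the sublayers. The arm miR-125b-5p, of a lin-4 relative abundant in neural tissue, stood at 636336 and 425136 CPM in the inner and outer libraries of set 1 and at 256803 and 284415 CPM in set 2 (0.24 ± 0.49, log2, SE). For miR-99a-5p, which shares a transcript with let-7 and miR-125 genes, the inner libraries held 118080.3 and 78262 CPM and the outer ones 77525 and 58819 CPM (0.52 ± 0.48). Within each set the inner library held more of it, yet the inner value of set 2 and the outer value of set 1 were nearly equal. For miR-125a-5p the difference was -0.04 ± 0.48 and for miR-149-5p, from an intron of GPC1, 0.04 ± 0.48. The latter was at 36350.3 and 39550.2 CPM in set 1 and 33627 and 28674 CPM in set 2. For miR-130b-3p, of the family with the seed of miR-301, the sublayers were alike within a set, at 415690.1 and 372711 CPM in set 1 and 2551 and 3174 CPM in set 2 (0.01 ± 0.57). The sign of the differences of miR-130b-3p and miR-149-5p turned with DESeq2's size factors, and 95% intervals of SEs near 0.5 take in changes of about 2-fold either way.

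Arms were then grouped by the lists of microRNAs with known roles. Over all 1139 tested arms, 644 had a higher estimate in the inner and 495 in the outer sublayer, with a median of 0.17 (log2) under TMM, 0.072 with DESeq2's size factors and 0.13 with library totals. None of the 16 lists held a called arm. The neuronal list, 31 arms of microRNAs such as miR-138 and miR-139 that mark or shape neurons, had 15 arms higher in the inner and 16 in the outer sublayer and a median of -0.04. Its most abundant arm, miR-139-5p, from an intron of PDE2A, held 1926 and 969 CPM in the inner and 2464 and 1973 CPM in the outer libraries (-0.71 ± 0.49, log2, SE). The outer library was higher within each set. For miR-138-5p, which limits dendritic spine size, the values were 479.7 and 174 CPM in the inner and 410.1 and 226 CPM in the outer libraries (-0.04 ± 0.50). The sublayers exchanged order between sets for that arm.

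The progenitor list had 12 of 21 arms higher in the inner sublayer and 9 in the outer one, with a median of 0.02 that became -0.11 with DESeq2's size factors. Its leading marker, miR-92b-3p, held 13464 and 19179 CPM in the inner and 20282 and 19772 CPM in the outer libraries (-0.29 ± 0.47, log2, SE). Both sublayers thus held well under the VZ_17 level of this arm and well over that of CP_17. The cell cycle arm miR-221-3p held 34249 and 12509.8 CPM in the inner and 25688 and 17999 CPM in the outer libraries (-0.01 ± 0.52).

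The proliferation clusters around miR-17 gave the widest split between the sets among the larger lists. Of 20 arms, 10 were higher in each sublayer, and 14 had opposite directions in the 2 sets, with a median of 0.60 in set 1 and -0.66 in set 2. For miR-17-5p itself the inner libraries held 16015 and 8062 CPM and the outer ones 10880.4 and 11827 CPM. For miR-25-3p the inner libraries held 9094 and 2326 CPM and the outer ones 5242 and 3837 CPM. So both arms were higher in the inner library of set 1 and in the outer library of set 2. For miR-106b-5p the outer library was higher in both sets, at 3058 and 2284 CPM against 1688 and 1002 CPM (-1.0 ± 0.61, log2, SE).

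The family of miR-15 and miR-16, which hold back the cell cycle, had 10 of 14 arms higher in the outer sublayer and 4 in the inner one, with medians of 0.01 in set 1 and -0.75 in set 2. For miR-15b-5p the outer libraries held 16846 and 11959.8 CPM and the inner ones 11897 and 7889 CPM (-0.54 ± 0.52). For miR-16-5p the inner library was higher in set 1, at 53870.2 against 23552 CPM, and lower in set 2, at 10921 against 17091 CPM. The let-7 family had 11 of 18 arms higher in the outer sublayer and 1 arm, let-7b-5p, at an unadjusted p under 0.05. Against let-7b-5p, the more abundant let-7g-5p held 4805 and 2449.5 CPM in the inner and 2562 and 2451 CPM in the outer libraries (0.49 ± 0.57), and let-7f-5p had a difference of 0.25 ± 0.59. The direction thus differed between members of the family.

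The broad neural list, with arms of miR-9, miR-125, miR-99, miR-181, miR-135 and miR-30, had 22 of 33 arms higher in the outer sublayer, a median of -0.24 and 3 of 33 arms at an unadjusted p under 0.05, where 48 of all 1139 arms (4.21%) were, and they include miR-181a-5p and miR-181c-5p. The imprinted DLK1-DIO3 cluster had 37 of 77 arms higher in the inner and 40 in the outer sublayer, a median of -0.05 and 4 of 77 arms at an unadjusted p under 0.05, a share near that of all arms. Its most abundant arms did not stand out: miR-376c-3p held 70.6 and 105 CPM in the inner and 116 and 94.5 CPM in the outer libraries, and miR-487b-3p held 77.1 and 102 CPM in the inner and 148 and 93.0 CPM in the outer ones. Each was higher in the outer library of set 1 and in the inner library of set 2. Of the 6 arms of the miR-29 family, 5 were higher in the outer sublayer and miR-29c-5p was the exception. Its most abundant arm miR-29a-3p held 286 and 287 CPM in the inner and 336 and 241 CPM in the outer libraries (-0.01 ± 0.55).

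**Figure D4:**
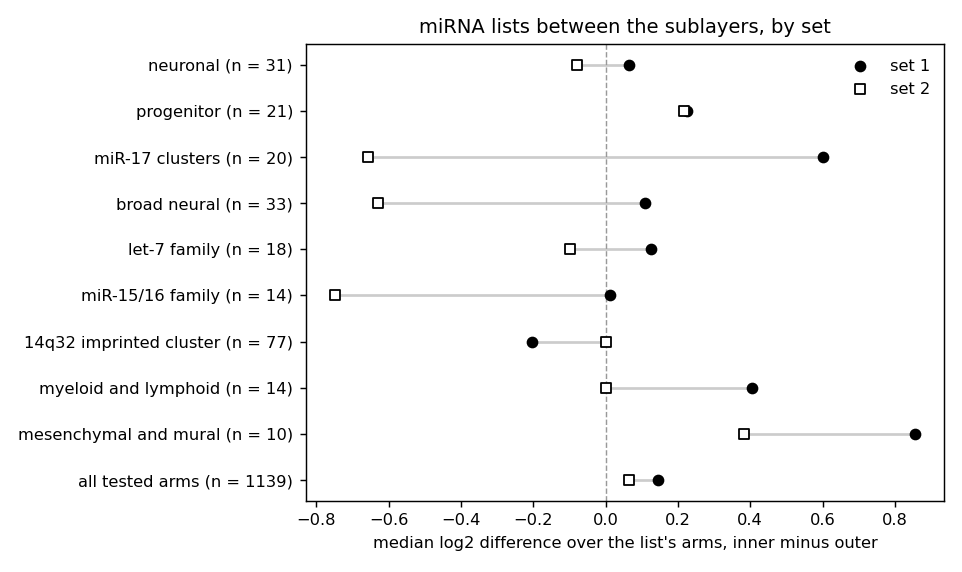
Median log2 difference of inner minus outer over the tested arms of each list with at least 10 arms, in set 1 (filled circles) and set 2 (open squares), with all 1139 arms at the bottom. The miR-17 clusters run from 0.60 in set 1 to -0.66 in set 2, and the mesenchymal and mural markers lie above 0 in both sets, at 0.86 and 0.38.

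Markers of other cell types that a microdissected strip could hold were read in the same way. Of 10 mesenchymal and mural arms, 8 were higher in the inner sublayer, with a median of 0.93 and a summed level of 4961 and 2435 CPM in the inner against 1430.3 and 1456 CPM in the outer libraries. Most of that sum is miR-145-5p. The next most abundant, miR-214-3p, held 173 and 171 CPM in the inner and 179 and 146 CPM in the outer libraries. Of the 4 erythroid arms, 3 were higher in the inner sublayer, with sums of 103 and 64.6 CPM against 82.1 and 18.7 CPM. The red cell arm miR-451-5p held 79.7 and 34.9 CPM in the inner and 65.8 and 10 CPM in the outer libraries, and miR-486-5p held 21.7 and 29.0 CPM in the inner and 6.77 and 6.30 CPM in the outer ones (1.94 ± 1.18, log2, SE). The erythroid sums were higher in the same sublayer as miR-145-5p. The mesenchymal and mural sum holds miR-145-5p itself, so its direction is not a separate observation. The part of vessel and blood cells in the difference of miR-145-5p was not tested.

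No arm of the other marker lists was called between the sublayers. The endothelial arm miR-126-3p held 3932.5 and 1011 CPM in the inner and 3031 and 1038 CPM in the outer libraries (0.19 ± 0.50, log2, SE). Of 14 myeloid and lymphoid arms, 9 were higher in the inner and 5 in the outer sublayer, with summed levels of 18148 and 8569 CPM against 15686 and 9909 CPM, nearly all of it miR-342-3p. The defining myeloid arm miR-142-3p was at 3.64 and 2.77 CPM in set 1 and without a count in either sublayer in set 2, and miR-223-3p was at 160 and 39.8 CPM in the inner and 80.1 and 46.4 CPM in the outer libraries. The oligodendrocyte lineage arm miR-338-3p held 99.5 and 27.6 CPM in the inner and 25.8 and 70.3 CPM in the outer libraries, in opposite order in the 2 sets. The multiciliated list had sums of 7.69 and 34.7 CPM against 16.1 and 12.1 CPM, and the liver and muscle list 35.2 and 75.2 CPM against 37.4 and 23.4 CPM. The choroid plexus list followed miR-204-5p, with sums of 166 and 299 CPM in the inner and 604 and 713 CPM in the outer sublayer, while miR-211-5p, with the same seed, held 18.0 and 20.3 CPM in the inner and 14.3 and 20.4 CPM in the outer libraries.

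Some marker arms had nearly all their counts in 1 sublayer, at levels near the limit of detection. For miR-486-3p there were 2 counts in the inner and 71 in the outer libraries, which made it 32.7-fold higher in the outer sublayer, opposite in direction to miR-486-5p (ratio of inner to outer from 0.0036 to 0.11, 95% exact interval). For miR-206-3p, a muscle arm, there were 0 and 34 counts, at least 10.5-fold higher in the outer sublayer against the floor. For miR-211-3p there were 34 counts in the inner and 1 in the outer libraries, a ratio of 36.9 with a 95% exact interval from 6.18 to 1498. For miR-449b-3p, of a multiciliated cell microRNA, there were 54 counts in the inner and 3 in the outer libraries (ratio 19.5, from 6.33 to 97.6), but the sets went opposite ways, with 0 and 3 counts in set 1 and 54 and 0 in set 2. These intervals cover counting error only.

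Each sublayer was next set against the ventricular zone of area 17. Between OSVZ_17int and VZ_17, 1 of 1139 arms was called (0.0878%): miR-652-3p, named because the count is 1, higher by 3.38 ± 0.67 (log2, SE; adjusted p = 0.0135, edgeR) in the inner sublayer. The inner libraries held 5344 and 21.9 CPM of it, the outer ones 1905 and 20.8 CPM, VZ_17 428 and 2.84 CPM and CP_17 677 and 40.6 CPM. The order of sublayers and VZ_17 was the same in both sets although the levels of the sets were far apart. Its call ended in 7 of 11 alternatives, where the adjusted p reached 0.886, among them no replicate block, both other scalings and the fits without OSVZ_17int replicate 1 or VZ_17 replicate 2. Between OSVZ_17ext and VZ_17, 0 arms were called (0%) by edgeR, with 79 at an unadjusted p under 0.05 (6.94%, against 83 or 7.29% for the inner sublayer) and 9 called by DESeq2. Without VZ_17 replicate 1 the counts were 15 for the inner and 29 for the outer sublayer. All 15, and 28 of the 29, were higher in the sublayer.

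Against the cortical plate, more arms were called than against the ventricular zone. The 2 libraries of each reference layer were not equally alike. Over the 379 arms, log2 CPM correlated at r = 0.718 between those of VZ_17 and at 0.913 between those of CP_17. The part of this in the counts of called arms was not tested. Of 1139 arms, 23 were called between OSVZ_17int and CP_17 (2.02%), 9 higher (0.79%) and 14 lower (1.23%) in the sublayer. Between OSVZ_17ext and CP_17 there were 20 (1.76%), 8 higher (0.702%) and 12 lower (1.05%). At an unadjusted p under 0.05 there were 117 arms (10.3%) for the inner and 103 (9.04%) for the outer sublayer. The comparisons share the CP_17 libraries. With library totals in place of TMM the splits were 11 higher and 10 lower for the inner and 9 higher and 7 lower for the outer sublayer, and with DESeq2's size factors the outer split was 9 and 8. Leaving out single libraries took the inner count to between 9 (without OSVZ_17int replicate 1) and 14 (without CP_17 replicate 2), and the outer count to between 5 (without OSVZ_17ext replicate 2) and 11 (without OSVZ_17ext replicate 1), and without the block the counts were 11 and 7. Of the arms above CP_17, 7 were shared, 77.8% of the inner and 87.5% of the outer calls, and of those below it 6 were shared, 42.9% and 50% of the calls.

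The shared arms above the cortical plate were led by miR-92b-3p. It was higher than in CP_17 by 4.01 ± 0.53 in the inner sublayer (adjusted p = 4.01e-06) and by 4.29 ± 0.54 in the outer one (adjusted p = 2.19e-06; log2, SE, edgeR), and both calls held in all 11 alternatives. Its partner arm miR-92b-5p was higher by 3.58 ± 0.63 and 3.23 ± 0.62. The germinal arm miR-887-3p was higher by 2.92 ± 0.54 and 3.56 ± 0.55, miR-3613-5p by 3.40 ± 0.65 and 3.63 ± 0.66, and the cell cycle arm miR-222-3p by 2.51 ± 0.60 and 2.88 ± 0.61. The matrix-linked arm miR-29a-3p (2.31 ± 0.58 and 2.32 ± 0.58) and miR-423-5p (2.03 ± 0.53 and 2.0 ± 0.53) completed the 7. Calls of the others were less stable over the 11 alternatives. Those of miR-29a-3p and miR-423-5p were kept in 6 on either side, and ended with no replicate block and with any single library of the comparison left out. The call of miR-222-3p was kept in 7 for the inner and 8 for the outer sublayer, and its inner value ran from 1.37 to 2.97. That of miR-3613-5p was kept in 9 and 11, of miR-887-3p in 10 and 11, and of miR-92b-5p in 10 on either side. The estimates of the sublayers were within 0.64 of each other for each of these arms.

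Of the arms called below the cortical plate, 5 of 14 for the inner and 8 of 12 for the outer sublayer were on the neuronal list. That list holds 31 of the 1139 tested arms. Of all arms, 1.23% were called below CP_17 for the inner and 1.05% for the outer sublayer. For miR-138-5p the inner sublayer was lower by 3.11 ± 0.54 and the outer one by 3.07 ± 0.54 (log2, SE; adjusted p = 0.00039 and 0.00065, edgeR). For miR-204-5p the inner sublayer was at -5.20 ± 0.68 and the outer one at -3.51 ± 0.62, and for miR-139-5p they were at -3.06 ± 0.53 and -2.36 ± 0.52. The other shared arms were miR-137-3p, which acts in neuronal maturation, miR-598-3p and miR-935-3p. Arms called below CP_17 for the inner sublayer and not for the outer one included miR-299-5p (-4.15 ± 0.94, adjusted p = 0.0078), miR-181c-5p (-2.85 ± 0.63), miR-181a-5p (-2.36 ± 0.62) and miR-323b-3p, which had no count in the inner sublayer. Those called for the outer one and not for the inner one included let-7i-5p (-3.34 ± 0.72), the activity-linked miR-132-5p (-2.64 ± 0.71) and miR-129-3p (-2.17 ± 0.53). Of 11 alternatives, the inner call was kept in 9 for miR-299-5p, in 7 for miR-181c-5p, in 5 for miR-323b-3p and in 4 for miR-181a-5p, whose value ran from -3.26 to -0.91 (adjusted p up to 0.867) and lost the call under both other scalings. The outer call was kept in 8 for let-7i-5p, in 6 for miR-129-3p and in 3 for miR-132-5p, which lost it with both other scalings, no filter, no replicate block and any single library left out. Among the shared arms, the calls of miR-138-5p and miR-204-5p were kept in all 11 for the inner and in 10 for the outer sublayer (each lost without OSVZ_17ext replicate 2), those of miR-139-5p in 11 and 6, of miR-598-3p in 8 and 9, of miR-137-3p in 9 and 6 and of miR-935-3p in 6 and 5. The test of the difference itself, inner against outer, called none of these arms.

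To place each sublayer between the layers, germinal and neuronal arms were chosen in area 18: the 15 arms with the smallest p that were higher in VZ_18 than in CP_18, and the 15 that were lower. On these, a position of 1 is the VZ_17 level and 0 the CP_17 level, on log2 CPM with a prior count of 2. In area 18, 12 of the germinal and all 15 neuronal arms were called, and in area 17 the direction was the same for 14 of 15 and 15 of 15. On the germinal arms the median position was 0.719 for the inner sublayer (0.781 and 0.661 in sets 1 and 2) and 0.816 for the outer one (0.777 and 0.789). On the neuronal arms it was 0.807 for the inner (0.669 and 0.856) and 0.700 for the outer sublayer (0.616 and 0.758). On these arms both medians lay nearer to VZ_17 than to CP_17. On the progenitor list in place of the germinal arms that direction turned, with medians of 0.499 for the inner and 0.396 for the outer sublayer, nearer to CP_17. That list was not chosen for a difference between ventricular zone and cortical plate. Its arm miR-130b-5p held 2500 and 14836 CPM in VZ_17 against 5204 and 31518 CPM in CP_17, so a position of 1 is its lower level. The medians of that list are thus a weaker guide to placement.

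The order of the sublayers depended on the list. On germinal arms the inner sublayer had the higher position in 6 of 15 arms, and in both sets in 1 arm. The outer one was higher in both sets in 5. On neuronal arms the inner sublayer had the higher position in 9 of 15, in both sets in 4, with the outer one higher in both sets in 3. A higher position can lie past the VZ_17 level, so it is not always the nearer one. Of these 30 arms, 0 were called between the sublayers (0% of all arms), 0 between either sublayer and VZ_17 (0.0878% of all arms for the inner and 0% for the outer), and 13 (inner) and 15 (outer) against CP_17 (2.02% and 1.76% of all arms).

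Single arms show the placement in their levels. The germinal arm miR-92b-3p placed the inner sublayer at 0.711 and the outer one at 0.768, and miR-92b-5p placed them at 0.719 and 0.647. For miR-887-3p the inner libraries held 539 and 814 CPM and the outer ones 1136 and 956 CPM, between 2393 and 1777 CPM in VZ_17 and 84.2 and 93.7 CPM in CP_17, for positions of 0.639 and 0.783. The outer sublayer was nearer to VZ_17 in both sets for that arm. For miR-574-3p the positions were 0.672 and 0.678 and for miR-222-3p 0.769 and 0.954. The immune arm miR-155-5p, which passed among the germinal arms, held 47.8 and 106 CPM in the inner and 171 and 256 CPM in the outer libraries (-1.49 ± 0.69, log2, SE).

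Among neuronal arms, miR-138-5p placed the sublayers at 0.950 and 0.927 and miR-598-3p at 1.0 and 1.09, both beside VZ_17. For miR-139-5p the inner sublayer was at 0.838 and the outer one at 0.649, and for miR-135b-5p they were at 0.431 and 0.513. The arm miR-4271-5p placed them at -0.346 and 0.589, the inner sublayer beyond the cortical plate. For miR-204-5p the positions were 1.04 and 0.700, and the gap was seen in both sets (1.06 and 0.679, then 1.01 and 0.724). For miR-664-3p they were 0.824 and 0.510, again in both sets. The germinal arm miR-3164-5p gave no usable position, since its VZ_17 and CP_17 levels were near each other on average (1545 and 0 CPM against 694 and 0.238 CPM) and set 2 held at most 1.92 CPM in either sublayer. It was kept in the medians and counts above. So was miR-93-5p, the germinal arm that was lower in VZ_17 than in CP_17 (-0.99 ± 0.61, log2, SE), for which a position of 1 is the lower level.

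**Figure D5:**
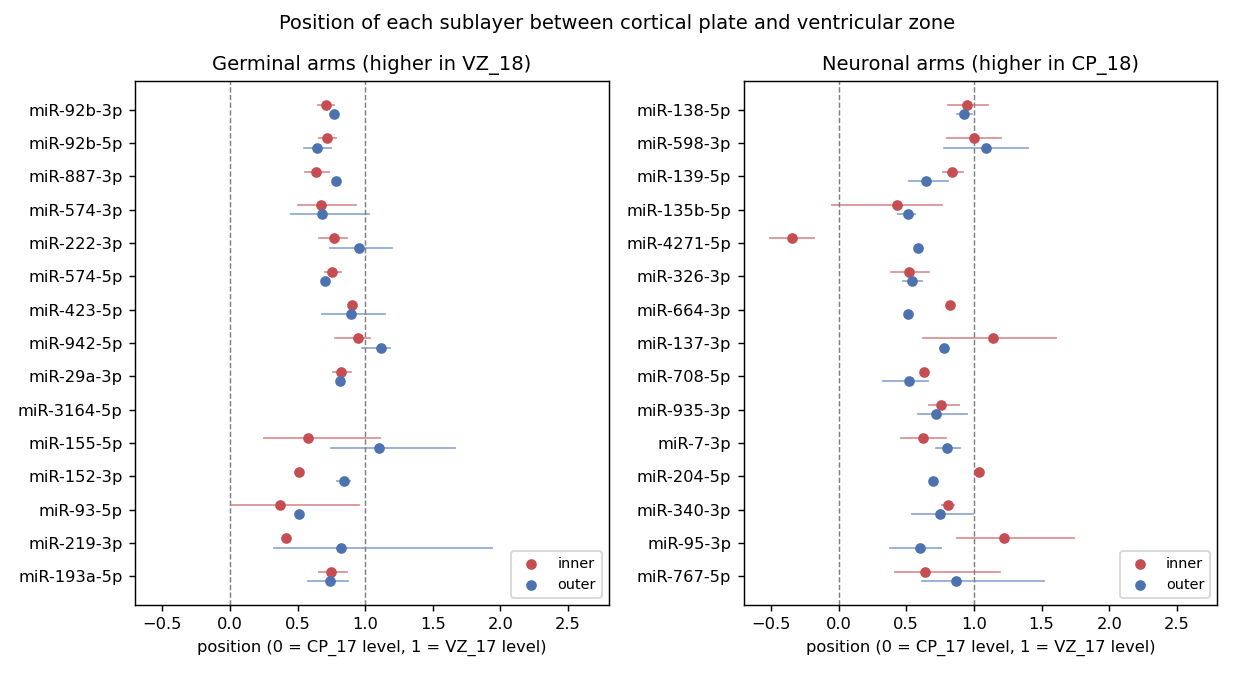
Position of the inner (red) and outer (blue) sublayer on 15 germinal arms (left) and 15 neuronal arms (right), where 0 is the CP_17 level and 1 the VZ_17 level. Points are the mean of the sets and lines join the 2 sets, drawn only where both sets lie on the axis; miR-3164-5p, at 14.9 and 10.9, is off the axis. Most points lie between 0.5 and 1 in both panels, and miR-4271-5p stands below 0 in the inner sublayer.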

How the data were processed

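Small RNA of laser-microdissected regions was extracted with a microRNeasy kit and made into SOLiD libraries selected for microRNA size, per the labels' protocols. The authors deposited raw counts per microRNA name and arm; their aligner, microRNA annotation, genome build and handling of reads with several matches are not given in the sources used here. The tables of sets 1 and 2 held 861 and 868 names, every name with at least 10 counts in total, and 828 names in both were used. Columns were tied to labels by region name and by the spelling of the sublayers. A further table has 12 value columns of 6 libraries whose names match no label, and it was not used; 6 labelled samples, 1 inner and 1 outer sublayer among them, were therefore not analysed here.

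Counts of 14 libraries were fitted in R 4.3.3 with edgeR 4.0.16 (TMM, filterByExpr by region, robust quasi-likelihood F test, set as block, Benjamini-Hochberg over 1139 arms, 517 removed, 99.985% of counts kept), leaving 6 residual degrees of freedom. The script was tested on simulated data. SE is the log2 difference divided by the root of F. DESeq2 1.42.0 was an alternative. The set block was checked by the set 1 minus set 2 differences of 379 arms: all 21 pairs of regions correlated above 0.1 (median 0.576, from 0.228 to 0.723), and regions of a set share an embryonic day. Named arms were the 8 per direction with the smallest p among arms averaging 10 CPM or more whose sets shared a direction (no arm was called), the 5 most abundant arms, up to 4 arms per list by abundance, and 15 arms per direction for placement. The members, lists and rules were chosen with earlier results of these data known. No sequences are shown, since no table of mature microRNA sequences was at hand. Precision is limited by 2 libraries per region.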

Additional observations from a re-analysis of the deposited data

How the results depend on the processing

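The count of arms called between OSVZ_17int and OSVZ_17ext was 0 with no replicate block (38 arms at an unadjusted p under 0.05), with both other scalings, with no filter, with only arms of at least 10 CPM and in a fit of the 4 sublayer libraries alone. It was 2 with the DESeq2 Wald test, 5 without VZ_18 replicate 1 and VZ_17 replicate 2 together and 0 to 1 over fits that leave out 1 sublayer library, the 1 being without OSVZ_17int replicate 1. In those fits the lone sample is assumed to vary like the other regions. Against VZ_17, the count of 1 for OSVZ_17int was 0 with no replicate block, with DESeq2's size factors, with library totals, with only arms of at least 10 CPM and without the 2 VZ libraries, 12 with the DESeq2 Wald test and 0 to 15 with single libraries left out (15 without VZ_17 replicate 1). For OSVZ_17ext the count of 0 became 9 with the DESeq2 Wald test and 0 to 29 with single libraries left out (29 without VZ_17 replicate 1). Against CP_17, the count of 23 for OSVZ_17int was 11 with no replicate block, 71 with DESeq2, 42 without the 2 VZ libraries and 9 to 14 with single libraries left out. The count of 20 for OSVZ_17ext was 7 with no replicate block, 55 with DESeq2, 34 with only arms of at least 10 CPM, 39 without the 2 VZ libraries and 5 to 11 with single libraries left out. Why these counts moved was not tested, and some of these fits held fewer arms or samples.

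The median position of OSVZ_17int on germinal arms was 0.499 on the progenitor list and 0.857 with area 18 reference layers, and that of OSVZ_17ext was 0.396 and 0.901. For OSVZ_17ext, whose medians in the sets were close, it was also 0.795 with DESeq2's size factors, 0.794 with library totals and 0.783 with a prior count of 0.5. It was 0.799 with 10 arms, and 0.777 to 0.789 with a set left out. Outer positions of single germinal arms could differ more between sets 1 and 2, as for miR-574-3p (1.03 and 0.454) and miR-155-5p (0.750 and 1.66). On the progenitor list both medians thus lay nearer to CP_17 than to VZ_17, and the inner sublayer was the nearer to VZ_17, the reverse of both statements on the 15 arms. That list was not chosen for a difference between the reference layers, as said above. On neuronal arms OSVZ_17int ran from 0.669 to 0.856 with a set left out, and OSVZ_17ext was at 0.966 with area 18 reference layers, above the inner one at 0.919.

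Over the 74 arms picked by the naming rule, 880 alternative values of the inner and outer difference were computed: 773 kept direction and side of the threshold, 7 passed the threshold and 100 changed sign. The 16 arms with the smallest p kept their direction in each alternative. They were chosen for a shared direction in both sets and a small p, so this follows largely from the choice. Differences near 0 that changed sign are given by setting for the arms named above. With the DESeq2 Wald test they were -0.11 for miR-130b-3p, -0.056 for miR-149-5p, -0.024 for miR-17-5p, -0.0054 for miR-214-3p. With DESeq2's size factors in edgeR they were -0.11 for miR-130b-3p, -0.056 for miR-149-5p, -0.024 for miR-17-5p, -0.0055 for miR-214-3p. With only arms of at least 10 CPM they were 0.091 for miR-125a-5p, 0.089 for miR-138-5p, 0.11 for miR-221-3p, 0.15 for miR-29a-3p, 0.11 for miR-342-3p. With library totals they were -0.13 for miR-130b-3p, -0.036 for miR-17-5p, -0.028 for miR-9-5p. With no filter they were -0.11 for miR-130b-3p, -0.072 for miR-149-5p, -0.00089 for miR-17-5p, -0.017 for miR-214-3p. With no replicate block they were 0.055 for miR-125a-5p, 0.039 for miR-138-5p, 0.10 for miR-221-3p, 0.034 for miR-342-3p. In a fit of only the 4 sublayer libraries they were -0.16 for miR-130b-3p, -0.028 for miR-149-5p, -0.080 for miR-17-5p, -0.046 for miR-25-3p. Without VZ_18 replicate 1 and VZ_17 replicate 2 together they were -0.15 for miR-130b-3p, -0.10 for miR-149-5p, -0.052 for miR-17-5p, -0.060 for miR-214-3p, -0.016 for miR-211-5p. Over the fits that leave out 1 sublayer library, differences of inner minus outer that took both signs ran from -0.14 to 0.34 for miR-125b-5p, -1.04 to 0.68 for miR-130b-3p, -0.39 to 0.045 for miR-125a-5p, -0.20 to 0.26 for miR-149-5p, -0.47 to 0.047 for miR-138-5p, -0.50 to 0.13 for miR-221-3p, -0.65 to 0.39 for miR-17-5p, -0.84 to 0.65 for miR-25-3p, -0.87 to 1.19 for miR-9-5p, -0.010 to 0.41 for let-7f-5p, -0.54 to 0.80 for miR-16-5p, -0.29 to 0.32 for miR-29a-3p, -0.69 to 0.13 for miR-376c-3p, -0.99 to 0.19 for miR-487b-3p, -0.37 to 0.013 for miR-342-3p, -0.19 to 0.29 for miR-126-3p, -0.29 to 0.20 for miR-214-3p, -0.97 to 1.32 for miR-338-3p, -0.31 to 0.57 for miR-211-5p, -0.84 to 0.46 for miR-181b-5p.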

Other observations

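The ratio of the 2 arms of a microRNA was read in the 101 microRNAs with both arms averaging 10 CPM or more, as values outside the comparisons above. The shift of the 5p to 3p ratio between inner and outer sublayer had a median size of 0.93 in set 1 and 1.02 in set 2 (log2), and across microRNAs the shifts of the sets correlated at r = -0.092, a description across microRNAs with no test. Between the sets the median shift was 1.34 in the inner and 0.80 in the outer sublayer. In 4 microRNAs the more abundant arm changed between sets in both sublayers: miR-130b, let-7c, miR-22 and let-7a, named here after their values were seen. For miR-130b the log2 ratio of 5p to 3p was -7.30 in the inner and -6.22 in the outer library of set 1, and 3.54 and 2.52 in set 2. For let-7a it was -1.41 and -1.84 in set 1 and 0.19 and 3.29 in set 2.

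In 3 microRNAs, miR-590, miR-769 and miR-1273, the more abundant arm differed between the sublayers in both sets. For miR-769 the log2 ratio of 5p to 3p was 1.86 and 1.23 in the inner libraries of sets 1 and 2 and -0.37 and -0.25 in the outer ones. For miR-1273 it was 0.31 and 0.21 in the inner and -1.65 and -0.65 in the outer libraries. These were found by looking over all 101 microRNAs and have no test of their own.

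The values of some arms, named here after they were seen, were high in some libraries only, and for miR-412-3p, miR-1-5p and miR-668-3p these were of set 2. The arm miR-31-3p held 21.2 and 0.461 CPM in the inner and outer libraries of set 1 and 0 and 5.33 CPM in set 2. For miR-412-3p, of the imprinted DLK1-DIO3 locus, the inner library of set 2 held 47.0 CPM against 0.969 in the outer one, and those of set 1 held 0.202 and 2.61 CPM. VZ_17 of set 2 held 133 CPM of that arm and VZ_17 of set 1 held 0.430 CPM, and CP_17 of set 2 held 15.6 CPM. For miR-1-5p the inner library of set 2 and VZ_17 of set 2 held 37.4 and 55.4 CPM, while the outer libraries and the inner library of set 1 held at most 0.615 CPM. For miR-668-3p the same libraries held 29.4 and 101 CPM, against 1.94 CPM in the outer library of set 2. Over the 379 arms, log2 CPM of the inner library of set 2 correlated at 0.893 with VZ_17 of the same set, and that of the outer library at 0.811. In set 1 these values were 0.943 and 0.948.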
